A study of Rattus norvegicus with 12 samples.

Results

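Integrins are the receptors by which fibroblasts hold the extracellular matrix, and each is a pair of 1 alpha and 1 beta subunit. The 9 subunit genes described here were Itga1, Itga3, Itga5, Itga6, Itga7, Itga8, Itga11, Itgb1 and Itgb7. They were chosen by name, and every array probe set annotated to 1 of them alone was taken, which gave 16 probe sets of the 31042 tested, for 9 of the 14217 genes measured. Further subunits, Itgav and Itgb4 among them, were counted in a separate list. Expression was compared between Tumor cells and A16 cells, both derived from F111, a fibroblast line of the Fischer rat. Tumor cells were cultured from tumours that had formed 3 months after F111 cells kept in suspension had been injected under the skin of nude mice. A16 cells were F111 cells left on plastic for 16 h. Nude mice lack a working thymus but keep their own fibroblasts, vessels and macrophages, and the labels do not say how many animals gave each Tumor sample. By the labels both were kept in the same medium and serum, but the methods give tumour explants a higher serum level. Each group had 3 arrays and n = 2 replicates, because the array called technical replicate 2, which has no biological number in its label, was averaged with replicate 1. All levels are log2 RMA intensity and all differences are Tumor minus A16.

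As background, the beta1 subunit (Itgb1) pairs with all 7 alpha subunits of the list. Alpha1 and alpha11 then bind collagen, alpha3, alpha6 and alpha7 bind laminin, and alpha5 and alpha8 bind ligands with an RGD sequence, such as fibronectin for alpha5 and nephronectin for alpha8. Alpha6 also pairs with beta4, the laminin receptor of hemidesmosomes in epithelia. Beta7 pairs with alpha4 or alphaE and is known from lymphocytes that home to the gut. On a beta1 chain the alpha partner sets which matrix protein is held, and engaged integrins signal through focal adhesions to growth and survival pathways.

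In Tumor cells the brightest probe set of the laminin receptor subunit Itga6 rose 2.51-fold, the only call among the 9 genes by brightest probe set. A dimmer Itga6 probe set fell 2.04-fold and the mean of its 4 probe sets was not called (0.37 ± 0.13), so the direction for the gene as a whole was not settled. Itga3, the other laminin receptor subunit of fibroblasts, was 1.82-fold higher and passed the adjusted p without reaching 2-fold. The fibronectin receptor subunit Itga5 averaged 1.86-fold lower and missed the adjusted p. The common partner Itgb1 differed by 0.02 ± 0.12 on its brightest probe set (SE, n = 2 per group) and by -0.77 ± 0.15 on its other one, which passed the adjusted p under 2-fold. Outside the 9 genes, Itgb4, the second partner of alpha6, rose 18-fold.

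The word called is used for an adjusted p below 0.05 together with a change of 2-fold or more. Of the 16 probe sets, 1 was called higher and 1 lower, or 12.5%, against 11.9% of all probe sets tested (5.51% higher and 6.39% lower). An adjusted p under 0.05 at any fold was met by 8 of the 16, or 50%, of which 5 were higher and 3 lower, against 31.8% of all probe sets. The 3 Tumor arrays lay all above or all below the 3 A16 arrays for 12 of the 16, or 75%, against 52.6% of all probe sets. Of the 12, 7 were above (27.6% of all probe sets) and 5 below (25%). Counted per gene by the brightest probe set, 1 of 9 was called higher and 0 lower by limma, against 10.9% called over all genes (5.45% higher and 5.44% lower), and at an unadjusted p under 0.05 there were 4 higher and 1 lower, against 22.5% higher and 21.3% lower over all genes. At any fold 4 of the 9 genes passed, against 34% of all genes. The median difference of the 9 genes was 0.27, and that of all genes 0.03. The share called was near that of the whole array.

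**Figure D1:**
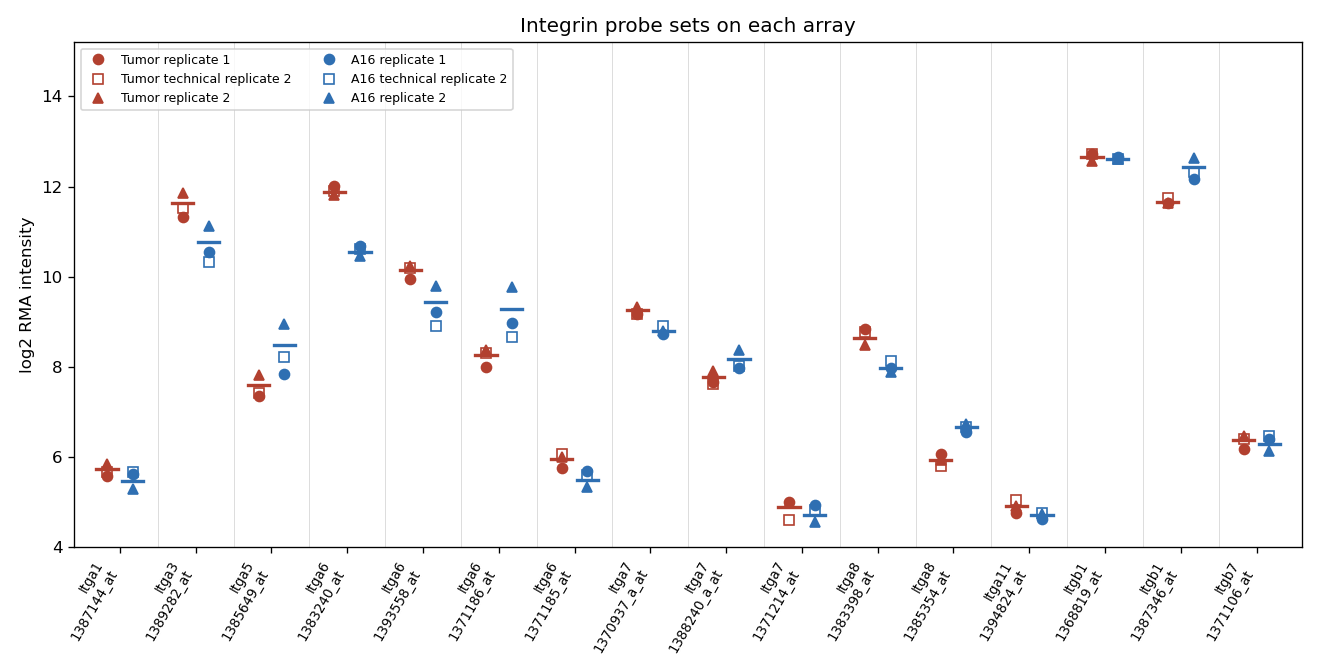
Log2 RMA intensity (vertical axis) of each of the 16 integrin probe sets (horizontal axis, gene and probe set) on the 3 Tumor arrays (red) and the 3 A16 arrays (blue); circles are replicate 1, open squares technical replicate 2, triangles replicate 2, and bars the means of 2 replicates. The Itga6 probe set 1383240_at stands 1.33 higher in Tumor cells, while Itgb1 probe set 1368819_at overlaps between the groups.

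Features of the whole arrays also followed the groups. Beta-actin read higher at its 3′ than at its 5′ probe set by 2.30 on Tumor arrays and by 0.67 on A16 arrays. For GAPDH the same reading was smaller, 0.29 on Tumor and -0.03 on A16 arrays. The poly-A spikes, bacterial transcripts added before labelling, averaged 4.81 on Tumor and 7.82 on A16 arrays. The ranges of the 3 arrays did not overlap for any of these measures. A difference in labelling cannot be told apart from the group, and the part of these measures in the values of any gene was not tested. A16 replicate 2 stood apart from the other A16 arrays (r = 0.991 with replicate 1, against 0.997 between replicate 1 and technical replicate 2). It had the highest A16 value for, among others, Itga3, Itga5, Itgb1 probe set 1387346_at and Itga6 probe sets 1393558_at and 1371186_at. Because these are bulk samples, fewer cells with a transcript and less transcript per cell cannot be told apart.

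The laminin-binding subunit Itga6 was measured by 4 probe sets, which did not give 1 answer. On 1383240_at it read 12.01, 11.89 and 11.82 on the Tumor arrays (replicate 1, technical replicate 2 and replicate 2), against 10.68, 10.62 and 10.46 on the A16 arrays. The groups were far apart beside the spread of either, and the difference was 1.33 ± 0.12 (adjusted p 0.000542 with limma). It ranged from 1.23 to 1.42 over 17 alternative settings. Those that change only the percentile filter, the intensity trend, the replicate block, the test or the fold rule leave the difference as it is by construction.

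On 1371186_at, Itga6 lay the other way, at 7.99, 8.31 and 8.37 in Tumor cells and at 8.97, 8.65 and 9.77 in A16 cells. All Tumor arrays were below all A16 arrays, and the fall of 2.04-fold was called (difference -1.03 ± 0.30, adjusted p 0.0399). The call was lost in 10 of 17 alternatives, while the sign was kept in each alternative that could move the difference. In 9 of these 10 the difference stayed between -1.14 and -0.91, and it was -0.55 when A16 replicate 2 was left out. It was -1.51 when A16 replicate 1 was left out. In every such fit without an A16 replicate the group holds 1 sample, so its own spread is not measured. The error then comes from the Tumor pair, moderated by limma toward the spread of all probe sets.

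The remaining Itga6 probe sets were higher on every Tumor array. On 1393558_at the Tumor arrays read 9.94, 10.19 and 10.25 and the A16 arrays 9.22, 8.91 and 9.79, a difference of 0.73 ± 0.24 that missed the threshold (adjusted p 0.0583). The difference was 1.09 without A16 replicate 2, and it was 0.36 without A16 replicate 1. On 1371185_at the difference was 0.46 ± 0.14 (adjusted p 0.0448, under 2-fold). Within the arrays, 1383240_at and 1371186_at changed unequally by 2.36 (2.34 under PLIER). Averaged over its 4 probe sets, Itga6 differed by 0.37 ± 0.13 (adjusted p 0.0579). The files do not say which exons or isoforms each probe set covers, and a transcript-specific change was not tested.

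Itga3 had 1 probe set. It read 11.33, 11.53 and 11.85 in Tumor cells, against 10.55, 10.32 and 11.12 in A16 cells. Every Tumor array was higher, but the gap between Tumor replicate 1 and A16 replicate 2 was small beside the spread within A16. The difference was 0.86 ± 0.25 (adjusted p 0.0395), with a 95% interval from 0.27 to 1.46. Dropping A16 replicate 2 gave 1.21, and dropping A16 replicate 1 gave 0.52. PLIER gave 0.83 (adjusted p 0.0403).

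Itga7, which pairs with beta1 as a laminin receptor of muscle, showed small differences of both signs. Probe set 1370937_a_at read 9.17, 9.17 and 9.34 in Tumor cells and 8.73, 8.90 and 8.79 in A16 cells. These were separate ranges with a difference of 0.45 ± 0.12 (adjusted p 0.0274), and 0.74 under PLIER. Probe set 1388240_a_at had all Tumor arrays below the A16 arrays, with -0.41 ± 0.17 (adjusted p 0.118). The third, 1371214_at, overlapped between the groups (0.17 ± 0.14) and lay at 4.89 in Tumor and 4.72 in A16 cells, close to the 4.21 and 4.25 of the Trp probe sets, for which no transcript is added. The direction for Itga7 as a whole was not settled, and the mean of its 3 probe sets was 0.07 ± 0.12.

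Itga5, of the RGD-binding subunits, forms the fibronectin receptor with beta1. It read 7.34, 7.42 and 7.81 in Tumor cells and 7.84, 8.22 and 8.94 in A16 cells. Tumor replicate 2 and A16 replicate 1 nearly touched, and the other arrays lay apart. The difference of -0.89 ± 0.30 missed the threshold (adjusted p 0.0666, 95% interval -1.62 to -0.17), and PLIER gave -1.10 (adjusted p 0.0717). It passed the adjusted p, under 2-fold, where technical replicate 2 was averaged with replicate 2 (-0.73, adjusted p 0.0228), counted as a replicate of its own (-0.81, adjusted p 0.0263) or kept with a random block (-0.84, adjusted p 0.0297). With the replicate number as a block, the difference of -0.89 passed as well (adjusted p 0.0011 with limma). Without A16 replicate 1 the difference was -1.35, and without A16 replicate 2 it was -0.44.

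Itga8, the nephronectin receptor subunit, had 1 probe set in each direction. Probe set 1383398_at read 8.84, 8.76 and 8.49 in Tumor cells and 7.98, 8.14 and 7.88 in A16 cells, so it was higher by 0.68 ± 0.15 (adjusted p 0.0141). Probe set 1385354_at read 6.06, 5.80 and 5.93 in Tumor cells and 6.54, 6.65 and 6.72 in A16 cells, so it was lower by a difference of -0.73 ± 0.11 (adjusted p 0.00361). Neither range overlapped, both passed at any fold, and the mean of both was -0.03 ± 0.11. Opposite directions that both pass at any fold were found for 2 of the 4 member genes with several probe sets, Itga6 and Itga8, and for 5.92% of the 4525 such genes on the array.

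Itgb1, the common beta chain, was bright on both of its probe sets. On 1368819_at it read 12.73, 12.73 and 12.57 in Tumor cells and 12.66, 12.62 and 12.60 in A16 cells, with overlapping ranges and a 95% interval of the difference from -0.26 to 0.30. On 1387346_at it read 11.64, 11.74 and 11.65 in Tumor cells and 12.16, 12.32 and 12.63 in A16 cells. There every Tumor array was lower, and the difference was -0.77 ± 0.15 (adjusted p 0.0104, under 2-fold). The 2 probe sets changed unequally by 0.79, and the files do not say which part of the transcript each one reads. Averaged over both probe sets, Itgb1 was lower by a difference of -0.37 ± 0.12 (adjusted p 0.038 with limma, under 2-fold).

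Set against Itgb1 on the same array (1368819_at), the alpha subunits shifted by different amounts. By their brightest probe sets the shift was 1.30 for Itga6, 0.84 for Itga3, 0.65 for Itga8 and 0.43 for Itga7, and -0.92 for Itga5. PLIER gave 1.31, 0.78, 0.59, 0.70 and -1.15 for these 5 subunits. Against the other Itgb1 probe set, 1387346_at, the shift was 2.09 for Itga6, 1.63 for Itga3, 1.44 for Itga8, 1.22 for Itga7 and -0.13 for Itga5, so its size depends on the Itgb1 probe set. Itga6, Itga7 and Itga8 also have probe sets of the opposite sign. These are descriptions of unequal change on the array and were not tested.

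The collagen-binding subunits and Itgb7 were dim. Itga1 read 5.58, 5.66 and 5.84 in Tumor cells and 5.62, 5.66 and 5.28 in A16 cells, with overlapping ranges (0.27 ± 0.16, adjusted p 0.269). Itga11 lay at 4.91 in Tumor and 4.70 in A16 cells (0.21 ± 0.11, adjusted p 0.206), again close to the Trp probe sets, and PLIER gave 0.53 (adjusted p 0.0234). A change of these transcripts could be understated near the floor. Itgb7 read 6.17, 6.40 and 6.47 in Tumor cells and 6.40, 6.47 and 6.13 in A16 cells, a difference of 0.10 ± 0.15 (95% interval -0.26 to 0.45) whose sign changed in 2 alternatives.

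**Figure D2:**
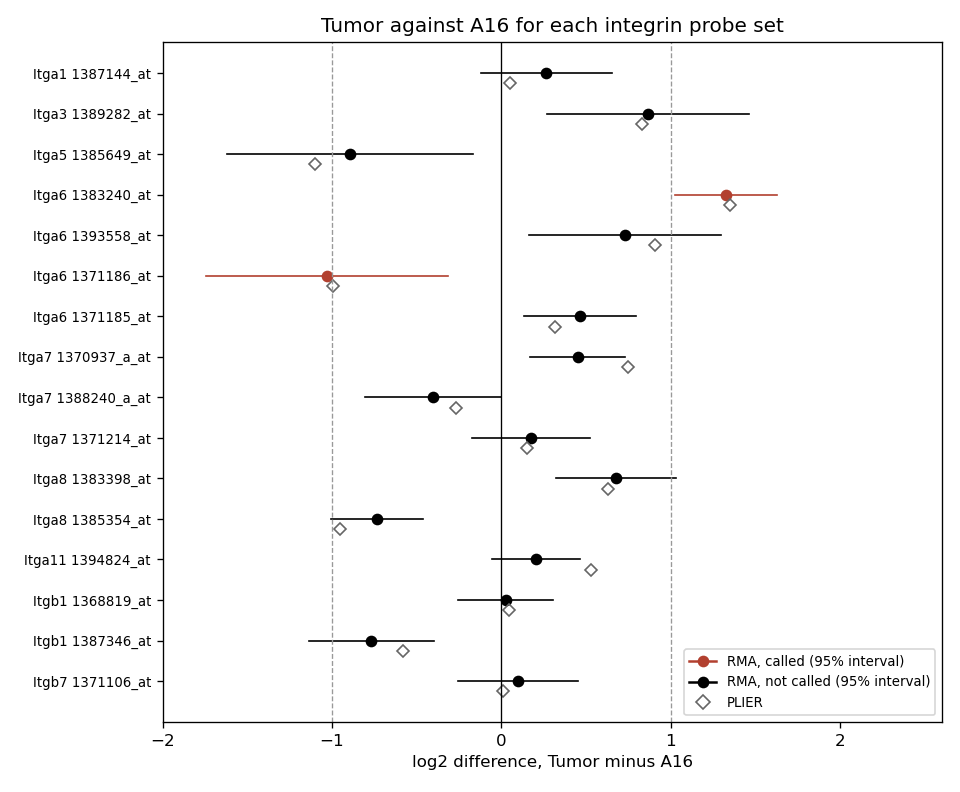
Log2 difference, Tumor minus A16 (horizontal axis), of each of the 16 integrin probe sets (vertical axis); circles are RMA values with 95% intervals, red where called, open diamonds are PLIER values, and dashed lines mark 2-fold. Itga6 has 1 called probe set on each side of 0, at 1.33 and -1.03, and Itga8 lies on both sides at 0.68 and -0.73.

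Promoter sequence is shown for Itga3 and Itga5, which had the highest and lowest fitted difference by brightest probe set among the genes with an entry, though neither was called, and for their partner Itgb1. RefSeq windows of 300 bases on the GRCr8 assembly, from 250 bases before to 50 bases after the annotated start, were found for 7 of the 9 genes, all but Itga6 and Itga7. The Itga5 and Itgb1 windows lie at the outer end of the annotated gene, whereas the Itga3 window lies inside it, at a start downstream of the gene's outermost one. Capitals mark matches, read on either strand, to the GC box GGGCGG, the CCAAT box CCAAT and the TEAD-type motif GGAATG. The AP-1 motif TGANTCA and the TATA box TATAAA were searched as well and had no match in these 3 windows.
Itga3, chr10:80518852-80519151, minus strand: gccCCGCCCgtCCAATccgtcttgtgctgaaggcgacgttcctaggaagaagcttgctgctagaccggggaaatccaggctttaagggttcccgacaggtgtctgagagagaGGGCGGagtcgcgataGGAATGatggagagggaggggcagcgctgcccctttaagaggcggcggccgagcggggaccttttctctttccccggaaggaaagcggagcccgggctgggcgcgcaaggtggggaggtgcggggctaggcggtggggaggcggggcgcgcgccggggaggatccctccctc
Itga5, chr7:136381256-136381555, minus strand: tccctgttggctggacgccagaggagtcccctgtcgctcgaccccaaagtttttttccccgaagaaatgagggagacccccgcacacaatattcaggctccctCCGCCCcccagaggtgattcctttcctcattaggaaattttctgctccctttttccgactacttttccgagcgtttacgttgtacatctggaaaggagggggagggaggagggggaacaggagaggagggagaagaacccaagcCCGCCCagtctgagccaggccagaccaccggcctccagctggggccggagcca
Itgb1, chr19:73602027-73602326, plus strand: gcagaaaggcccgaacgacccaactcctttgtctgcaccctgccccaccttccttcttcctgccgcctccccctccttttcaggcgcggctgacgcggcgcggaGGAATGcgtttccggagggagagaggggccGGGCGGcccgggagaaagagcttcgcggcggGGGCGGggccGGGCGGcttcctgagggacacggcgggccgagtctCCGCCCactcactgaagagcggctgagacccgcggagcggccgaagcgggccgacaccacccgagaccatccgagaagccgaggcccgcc
The GC box had 2 matches in the Itga3 window, 2 in Itga5 and 4 in Itgb1, and occurred in 33.1% of all 33469 promoter windows. The Itga3 window also held 1 CCAAT box, found in 37.5% of windows, and Itga3 and Itgb1 each held 1 GGAATG, found in 14.2%. The GC content was 67% for Itga3, 58.7% for Itga5 and 71.7% for Itgb1, against a median of 51.7% over all windows. No motif overlapped another. A match says only that these letters are present.

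For the lists that follow, 5.45% of all genes were called higher and 5.44% lower by brightest probe set. Over all probe sets the shares were 5.51% and 6.39%. The other integrin subunits measured on the array numbered 13 of 17 listed. Of these 2 rose, 0 fell by limma and 11 were not called, and at an unadjusted p under 0.05 there were 5 higher and 0 lower, against the shares of 22.5% and 21.3% over all genes (median 0.11). Itgb4 read 11.58, 11.70 and 11.97 in Tumor cells and 7.58, 7.37 and 7.78 in A16 cells, a rise of 4.17 ± 0.16 (adjusted p 2.2e-05) that was larger than that of any of the 9 members. The other rise was Itgax, a subunit of leukocyte integrins, at 8.78, 8.62 and 8.68 in Tumor cells and 7.11, 7.07 and 7.04 in A16 cells (1.62 ± 0.11). The arrays of the groups were separate for Itgb4 and for Itgax. Named after its value was seen, Itgb2 of the same list averaged 5.86 in Tumor and 5.69 in A16 cells and was not called (0.18 ± 0.17). Over all 18 probe sets of these subunits 3 were called higher and 0 lower, the additional one a dimmer probe set of Itgb5 (1.44 ± 0.17, named after its value was seen).

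Membrane proteins that associate with integrins moved in both directions. Of 12 tetraspanins and other partners 2 rose, 1 fell and 9 were not called (median 0.10). The tetraspanin Cd9 rose 7.04-fold (8.82, 8.60 and 8.60 in Tumor cells, 5.68, 6.12 and 5.78 in A16 cells), a log2 difference of 2.82 ± 0.12 that was 5.29 under PLIER. Cd81, another tetraspanin, rose 2.96-fold. Bsg, the immunoglobulin-family protein basigin, fell just over 2-fold (-1.01 ± 0.14) and was under 2-fold under PLIER (-0.92). Named after its value was seen, Cd151, the tetraspanin that binds laminin-receptor integrins, was higher by 0.83 ± 0.12 (adjusted p 0.003) without reaching 2-fold.

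Ligands of these receptors were next read from lists. Of 10 laminin chains 0 rose by limma, 2 fell and 8 were not called. At an unadjusted p under 0.05 with limma, 1 was higher and 4 were lower, against 22.5% and 21.3% of all genes. Lamb3 fell (adjusted p 9.92e-05, SE of the log2 difference 0.12, and -2.53 under PLIER), at 6.06, 6.05 and 6.26 in Tumor cells and 8.03, 8.27 and 8.18 in A16 cells. Lama4 was 3.73-fold lower on its brightest probe set, and a dimmer one at 4.96 in Tumor and 4.94 in A16 cells did not differ beyond its error (0.01 ± 0.11).

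Among 8 ligands and partners of RGD-binding integrins 2 rose, 2 fell and 4 were not called. Fibronectin, Fn1, the ligand of the Itga5 receptor, was 2.42-fold lower (11.76, 11.69 and 11.75 in Tumor cells, 13.04, 13.22 and 12.89 in A16 cells). Tenascin C, Tnc, was lower as well (-1.13 ± 0.13). Spp1, or osteopontin, rose by 5.79 ± 0.13 and the microfibril protein Fbn1 by 1.21 ± 0.12. Of 13 collagen ligands 3 rose, 4 fell and 6 were not called (median -0.57), led by Col11a1 (-3.88 ± 0.12), Col1a1 (-3.46 ± 0.20), Col6a2 (2.75 ± 0.27) and Col6a1 (2.71 ± 0.12). Over all probe sets, 3 of 24 for collagens were called higher and 9 lower, and 0 of 14 for laminins were called higher by limma and 3 lower. Of the 3 ligands of beta7 integrins, Vcam1, an adhesion molecule of activated endothelium, rose 2.92-fold and 2 were not called.

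**Figure D3:**
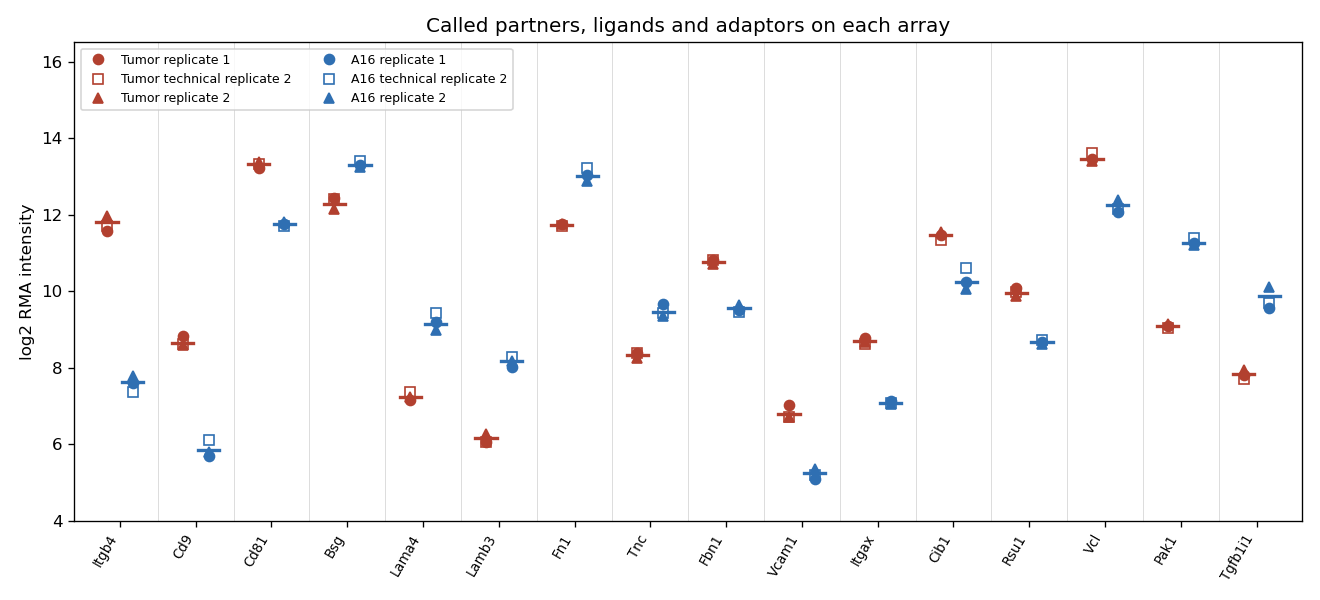
Log2 RMA intensity (vertical axis) of 16 called partners, ligands and adaptors by their brightest probe set (horizontal axis) on the 3 Tumor arrays (red) and the 3 A16 arrays (blue); symbols are as in the plot of integrin probe sets and bars are means of 2 replicates. Itgb4 averaged 11.80 in Tumor and 7.63 in A16 cells, and the groups are separate for each gene shown.

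Proteins that act on the integrin tails were read against the 10.9% of all genes called in either direction. Of 14 activators and inhibitors 1 rose, 0 fell by limma and 13 were not called. At an unadjusted p under 0.05 with limma, 4 were higher and 3 lower, against 22.5% and 21.3% of all genes. The rise was Cib1, a calcium- and integrin-binding protein (1.24 ± 0.15, adjusted p 0.00152). Over all 23 probe sets of the list, 2 were called higher and 1 lower. Named after their values were seen, the additional higher one was a dimmer probe set of Itgb1bp1 (1.55 ± 0.34). The lower one was a dimmer probe set of the gene Fermt2, or kindlin (-1.30), whose brightest probe set did not pass the adjusted p (-0.15 ± 0.12). Of 23 adhesion signalling and adaptor genes 19 were not called by their brightest probe set, 2 rose and 2 fell, with a median of -0.07. Over all 42 probe sets of the list, 2 were called higher and 12 lower, against 5.51% and 6.39% of all probe sets. The dimmer ones called lower, named after their values were seen, were of Actn1 (alpha-actinin, -2.11), the kinase Src (3 probe sets, -2.10 to -1.02), Tns3 (-1.70), Crk (-1.47), Tns1 (-1.46), Arhgef7 (-1.33), Parva (-1.16) and Pak1 (-2.88). The brightest probe sets of Actn1 (-0.33), Crk (-0.18), Tns1 (-0.28), Arhgef7 (-0.07) and Parva (-0.21) did not pass the adjusted p. Those of Src (-0.78) and Tns3 (-0.59) passed it under 2-fold. Another Crk probe set was higher (0.72, adjusted p 0.0114 with limma), so the direction for Crk is not settled. Rsu1, a partner of the PINCH adaptor, rose 2.46-fold. Vinculin, Vcl, rose by 1.22 ± 0.14 on its brightest probe set, but a second was lower by a difference of -0.96 (adjusted p 0.00207), so its direction is not settled. The kinase Pak1 fell 4.46-fold, and Tgfb1i1, the paxillin relative Hic-5, fell 4.05-fold (-2.02 ± 0.18, and -3.72 under PLIER).

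**Figure D4:**
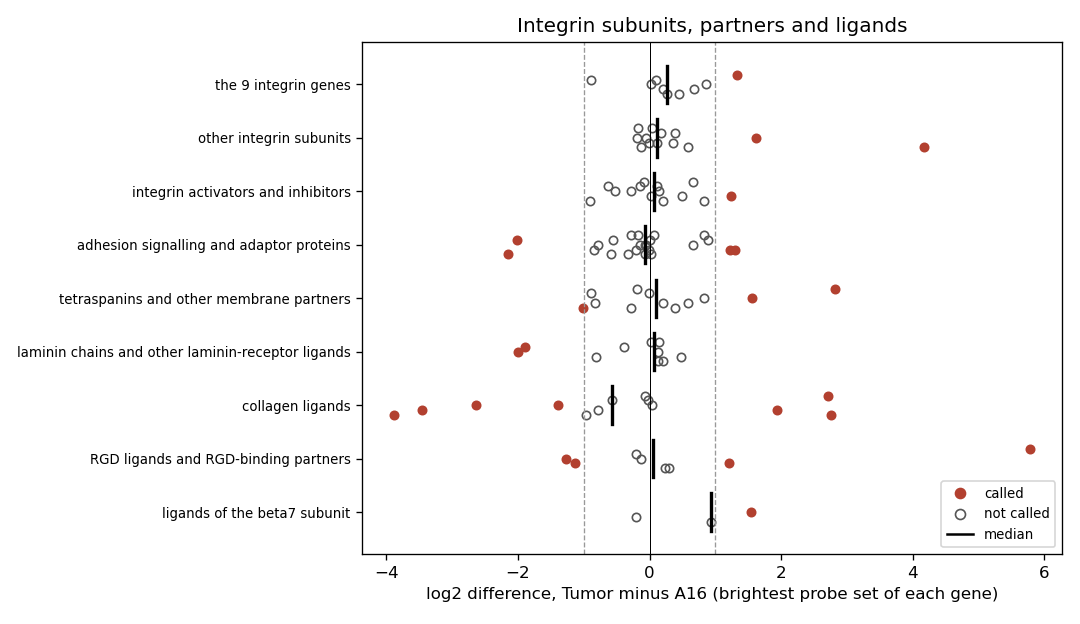
Log2 difference, Tumor minus A16 (horizontal axis), of the 9 integrin genes and of the members of 8 lists of related genes (vertical axis), each gene by its brightest probe set; red points are called, open points are not, black bars are medians and dashed lines mark 2-fold. Among integrin subunits Itgb4 at 4.17 lies farthest from 0, and the collagens spread from -3.88 to 2.75.

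Markers of cell types were read beside these values and beside the shares over all genes, 5.45% called higher and 5.44% lower. At an unadjusted p under 0.05 with limma those shares were 22.5% and 21.3%. Of 14 fibroblast markers 0 rose, 3 fell (Col1a1, Thy1 and Col1a2) and 11 were not called, and over all 21 probe sets 6 were called lower. Vim, the vimentin gene, averaged 14.19 in Tumor and 14.29 in A16 cells, and Pdgfra averaged 10.37 in Tumor and 10.43 in A16 cells. Dcn, Lum and Fap were dim, with averages of at most 5.41 in either group. The summed level of the list was 15.64 to 15.69 on Tumor and 16.18 to 16.35 on A16 arrays. Of 9 epithelial markers, listed because Itgb4 and Itga6 are known from epithelia, Krt8 rose (1.50 ± 0.13) and 8 were not called. Epcam lay at 4.27 in Tumor and 4.44 in A16 cells, near the Trp probe sets, and Krt8 averaged 11.02 in Tumor and 9.52 in A16 cells while no other marker was above 6.25. The summed level of the list, which Krt8 thus carries, was 11.17 to 11.31 on Tumor and 10.00 to 10.17 on A16 arrays. Cdh1, or E-cadherin, which is also a ligand of a beta7 integrin, was higher without reaching 2-fold (0.93 ± 0.12).

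Of 11 leukocyte markers, which bear on Itgax and Itgb7, Csf1r rose (3.14 ± 0.14), Cd68 rose (1.07 ± 0.12) and 9 were not called. Ptprc, the pan-leukocyte marker, averaged 5.06 in Tumor and 5.13 in A16 cells. The brightest of the list, Cd14, averaged 9.76 in Tumor and 9.93 in A16 cells. The summed level was 10.83 to 10.88 on Tumor and 10.46 to 10.63 on A16 arrays. Of 9 endothelial markers 0 were called by limma (2 higher and 2 lower at an unadjusted p under 0.05), and their summed level was 9.49 to 9.60 on Tumor and 9.67 to 9.89 on A16 arrays. Of 8 skeletal muscle markers, which bear on Itga7, Chrna1 rose (1.16 ± 0.12) and 7 were not called, and Myod1 lay at 4.40 in Tumor and 4.30 in A16 cells. The brightest of them, Myh1 by the platform annotation, averaged 12.09 in Tumor and 11.69 in A16 cells. The next, Des, averaged 8.24 in Tumor and 8.91 in A16 cells. Myh1 thus carries the summed level of 12.18 to 12.45 on Tumor and 11.87 to 12.11 on A16 arrays. Acta1, Tnnt3 and Ckm were dim, with averages of at most 6.08 in either group, and what the Myh1 probe sets read was not tested. Of 7 smooth muscle markers Tagln, Acta2 and Smtn fell and 4 were not called, with a summed level of 10.57 to 10.89 on Tumor and 12.42 to 12.98 on A16 arrays. Of 5 Schwann cell markers 0 were called by limma (1 higher at an unadjusted p under 0.05), with a summed level of 8.11 to 8.22 on Tumor and 8.00 to 8.26 on A16 arrays. The part of other cell types in the integrin values was not tested.

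**Figure D5:**
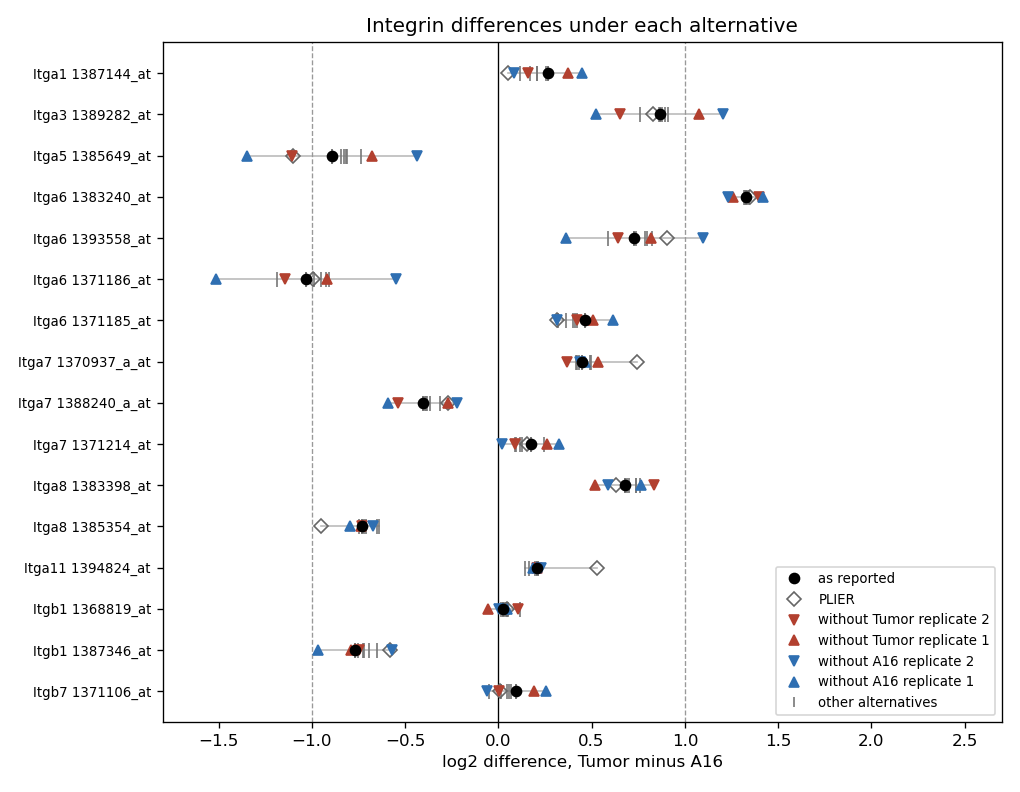
Log2 difference, Tumor minus A16 (horizontal axis), of each of the 16 integrin probe sets (vertical axis) as reported (black) and under each alternative that changes the value; triangles leave out 1 replicate, diamonds are PLIER and grey ticks are other alternatives. Itga3, Itga5 and Itga6 probe sets 1393558_at and 1371186_at move most with the A16 replicate left out, whereas Itga6 probe set 1383240_at stays between 1.23 and 1.42.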

How the data were processed

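Total RNA of F111 cells was labelled and hybridised to whole-genome rat arrays of Affymetrix. Per the labels and the study's methods, the authors adjusted the scans in the scanner software and summarised each probe set by RMA and by PLIER in Avadis. Versions of RMA and PLIER were not given in the sources used here. Deposited values are array intensity on a linear scale, with medians from 98 to 100 (RMA) and from 99.6 to 106 (PLIER), and log2 was taken of them. The lowest PLIER value was 16, so no offset was added. The 12 sample records are 6 arrays, each summarised both ways, and only RMA values entered the main comparison.

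Of 31099 probe sets 57 were array controls. The platform annotation gave 1 symbol to 20826 of the other 31042, several to 436 and none to 9780, and 20758 matched the GRCr8 RefSeq table through their Entrez identifier. Probe sets with several symbols were not used to name a gene. The brightest probe set by mean over all arrays stood for a gene in counts per gene.

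The test was limma's moderated test (version 3.58.1, R 4.3.3, functions lmFit then eBayes) of Tumor minus A16, two-sided, with Benjamini-Hochberg adjustment over 31042 probe sets (called at an adjusted p under 0.05 and at least 2-fold). Technical replicate 2 was averaged with replicate 1 on the log2 scale, because replicate 1 is the array labelled technical replicate 1, although the label of technical replicate 2 has no biological number. Errors are moderated SE. Titles and methods call the replicates biological, without saying whether cultures or animals were separate, so a p-value reflects only how these samples spread, which may be technical, and the number of arrays limits the precision. The procedure was tested on simulated data.

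The integrin genes and the 15 gene lists (8 of partners, ligands and adaptors, 7 of cell type markers) were chosen with earlier results of these data known. All 16 probe sets are reported, and up to 4 called genes of each partner list by size of change are named. Called markers are named, with some uncalled ones given for their level. No gene list was given a set test. Alternatives covered PLIER, the use of technical replicate 2, a 30th percentile filter, normalisation, an intensity trend, a replicate block, each replicate left out, any fold, the methods' t-test and a mean over the probe sets of each gene.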

Additional observations from a re-analysis of the deposited data

How the results depend on the processing

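The called rise of Itga6 on 1383240_at held in 16 of 17 alternatives and was lost only with the methods' t-test after Benjamini-Hochberg adjustment (adjusted p 0.0921). Under the any-fold rule, which is among the 17, no reported call could be lost and no sign could change by construction. Over all 16 integrin probe sets, 247 values under alternatives kept direction and call, 11 lost a call and 3 changed sign. A further 9 passed the rule of their setting where the reported value was not called. Of the 9, 6 passed only because the any-fold rule drops the 2-fold part, so they are not calls as defined here. The rest exceeded 2-fold in fits without an A16 replicate. These were Itga5 (-1.35 without A16 replicate 1), and Itga3 (1.21) and Itga6 probe set 1393558_at (1.09) without A16 replicate 2. The sign changes were Itgb7 at -0.048 with technical replicate 2 averaged with replicate 2, Itgb7 without A16 replicate 2 (leaving out 1 replicate gave -0.060 to 0.25), and Itgb1 on 1368819_at without Tumor replicate 1 (-0.056 to 0.11). The cause was not tested. The count of integrin probe sets called lower was 1 as reported and 0 under PLIER, with technical replicate 2 averaged with replicate 2 or counted as a replicate of its own, with all arrays and a random block, under quantile normalisation and with the methods' t-test unadjusted. At any fold 5 integrin probe sets were higher and 3 lower, and 4 genes higher, while over the array 5047 were higher and 4832 lower. The methods' t-test with adjustment called 0 integrin probe sets or genes in either direction, and 4 higher and 8 lower over the array, where the unadjusted test called 1607 higher and 1493 lower. With probe sets averaged per gene, 0 integrin genes were called higher by limma. Leaving out 1 replicate at a time gave 1 to 3 integrin probe sets higher and 0 to 2 lower, 1 to 2 genes higher and 0 to 1 lower, and 1651 to 1830 probe sets higher and 1684 to 2502 lower over the array. In these fits the lone sample of a group is assumed to vary like the other group. For lower probe sets over the array, the lowest and highest counts came without A16 replicate 2 and without A16 replicate 1. With the replicate number as a replicate block, 1 integrin probe set was higher and 1 lower, and 1715 were higher and 2035 lower over the array. The numbers are shared by label only, and the correlation of the replicate differences was 0.121 with 2 pairs, so the samples were not treated as paired. The 30th percentile filter removed 2 dim probe sets, of Itga7 and Itga11, for which no value was obtained under it.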

Other observations

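The 9 genes lie on 7 chromosomes of the GRCr8 assembly, and the members that share chromosome 7 had differences of both signs. On that chromosome Itga5 had a difference of -0.89, Itga7 of 0.45 and Itgb7 of 0.10 by their brightest probe sets, while the 891 other genes there had a median of -0.04. The medians of the other genes on the chromosomes of the remaining members were 0.02 for Itga6 (chromosome 3), -0.03 for Itga3 (chromosome 10), 0.15 for Itga8 (chromosome 17), -0.05 for Itgb1 (chromosome 19), 0.07 for Itga1 (chromosome 2) and 0.02 for Itga11 (chromosome 8). The quartiles of the genes were -0.27 and 0.25 on chromosome 3 and -0.30 and 0.18 on chromosome 10. By brightest probe set, Itga6 at 1.33 and Itga3 at 0.86 lay above the upper quartile of their chromosomes. So did Itga7 at 0.45 (upper quartile 0.21) and Itga8 at 0.68 (0.49), while Itga5 at -0.89 lay below its lower quartile (-0.41). The remaining members lay between the quartiles. Itga6 probe set 1371186_at, at -1.03, lay below the lower quartile of chromosome 3. These are values without a test.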
